A study of Mus musculus with 60 samples.

Results

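The CD8 T cell receptor (TCR) repertoires of STAT3koPD-1ko and WT donor T cells were compared in liver and gut on day 6 after allogeneic hematopoietic cell transplantation (HCT). The comparison took every day 6 CD8 sample of both genotypes, 16 of the 60 samples of the series: 4 STAT3koPD-1ko and 4 WT libraries of the TCR beta chain (TCRB), and as many of the TCR alpha chain (TCRA). In each table a genotype had 2 libraries from liver and 2 from gut, numbered 1 and 2, and a STAT3koPD-1ko library was paired with its WT counterpart by tissue and by number, which gave 4 pairs per chain. The question was whether donor CD8 T cells that lack both STAT3, a transcription factor downstream of several cytokine receptors, and PD-1, an inhibitory receptor of activated T cells, used other clonotypes, gene segments or CDR3 than WT cells at the onset of graft-versus-host disease (GVHD).

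All donors were C57BL/6 mice. In STAT3koPD-1ko donors, floxed Stat3 alleles were deleted by Cre under the Cd4 promoter, hence in T cells of both the CD4 and the CD8 lineage from the thymus on, and PD-1 was absent from the germline on. STAT3ko donors, whose libraries entered only the estimate of spread, carried the same Stat3 deletion with PD-1 intact. Recipients of every group were BALB/c mice, of another MHC type than the donors, given a lethal dose of irradiation, and every group also received T cell-depleted marrow from WT C57BL/6 mice. A day 6 sample held lymphocytes pooled from 3 recipients, from which cells with the donor molecule H-2Kb, TCR beta and CD8 were sorted. The tables hold only TCR sequences, so neither the loss of Stat3 and Pdcd1 nor CD8 itself could be checked in them.

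In the thymus a TCRB gene is joined from V (TRBV), D and J (TRBJ) segments, and a TCRA gene from V (TRAV) and J (TRAJ) segments. The CDR3 spans the joint and is the part of the receptor that lies over the peptide in the groove of the MHC molecule. Bases added or trimmed at the joint make most CDR3 rare, whereas CDR3 close to the germline segments recur between mice. A TCRA locus can rearrange more than once in the same thymocyte. The first joints use TRAJ segments on the TRAV side of the array, which carry the high numbers, and each later joint uses a segment farther away, with a lower number.

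Segment, length and residue shares were percentages of the listed reads of a library, whereas frequencies of single clonotypes, and the thresholds on them, were percentages of all its reads. The authors had joined 18 libraries and listed a clonotype if 2 or more of them held it, and each CDR3 amino acid sequence is on a single row with 1 representative V and J segment, so V and J usage is approximate. The tables listed 82447 TCRB and 59365 TCRA clonotypes, of which 65683 and 50422 were found in at least 1 of the 8 libraries compared. Listed clonotypes made up 93.2% to 95.7% of TCRB reads in the liver libraries and 53.2% in both gut 2 libraries. In gut 1 they made up 81.5% in STAT3koPD-1ko and 93.8% in WT. In TCRA they made up 79.5% to 97.9%, again with the lowest values in gut 2. The deposited values are fractions without read counts, and the depth of each library is unknown.

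The 4 libraries of a genotype were not independent of each other. Overlap, for which the lower of both frequencies of each clonotype was summed over a pair of libraries, was 37.2% between WT liver 1 and WT gut 1 and 35.2% between WT liver 2 and WT gut 1 in TCRB. In STAT3koPD-1ko the same overlaps were 23.5% and 27.5%. Gut 1 therefore shared clonotypes with both liver libraries of its genotype, whereas gut 2 shared 10.8% with liver 2 in WT and 10.6% in STAT3koPD-1ko, as much as libraries of different genotypes in the same tissue shared (8.87% to 13.2%). The spleen library labelled before HCT overlapped with liver 1 by 41.3% in WT and 53.7% in STAT3koPD-1ko, but with liver 2 by 6.33% and 8.37%. Nothing in the labels states that these libraries share donors, and p-values measure only the spread between these samples. Liver 1, liver 2 and gut 2 alone gave the same directions for the J shares described next, and calls that changed without gut 1 are named beside the result.

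A difference of one direction in all pairs lay in the TRAJ array. STAT3koPD-1ko CD8 T cells had a smaller share of the segments farthest from the TRAV genes, TRAJ2 to TRAJ22, and a larger share of those nearer to them. TRAJ2 to TRAJ22 made up 34.3% and 35.1% of TCRA reads in STAT3koPD-1ko liver 1 and 2 and 35.6% and 36.6% in gut 1 and 2. In WT the shares were 41.2% and 38.0% in liver and 39.3% and 38.9% in gut. The groups did not overlap, and the mean was 35.4% ± 0.955 (SD, n = 4) against 39.4% ± 1.35 (SD, n = 4). With 4 pairs the exact two-sided permutation test within pairs gave p = 0.125, the smallest p that this design allows, and the exact permutation test within tissue gave p = 0.0556, likewise the smallest possible.

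The rest of the array moved the other way in all 4 pairs. TRAJ43 to TRAJ61 made up 20.2% ± 0.297 in STAT3koPD-1ko and 18.2% ± 1.07 in WT (SD, n = 4), with STAT3koPD-1ko libraries at 20.6% or less, the lowest of them in gut 2, and WT libraries between 16.9% and 19.5%. TRAJ23 to TRAJ42 made up 44.4% ± 0.755 and 42.5% ± 0.543 (SD, n = 4). The exact permutation p-values were those of TRAJ2 to TRAJ22 for both shares, again the smallest that the design allows. Both differences stand for the same reads, since the 3 shares add up to 100%.

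**Figure D1:**
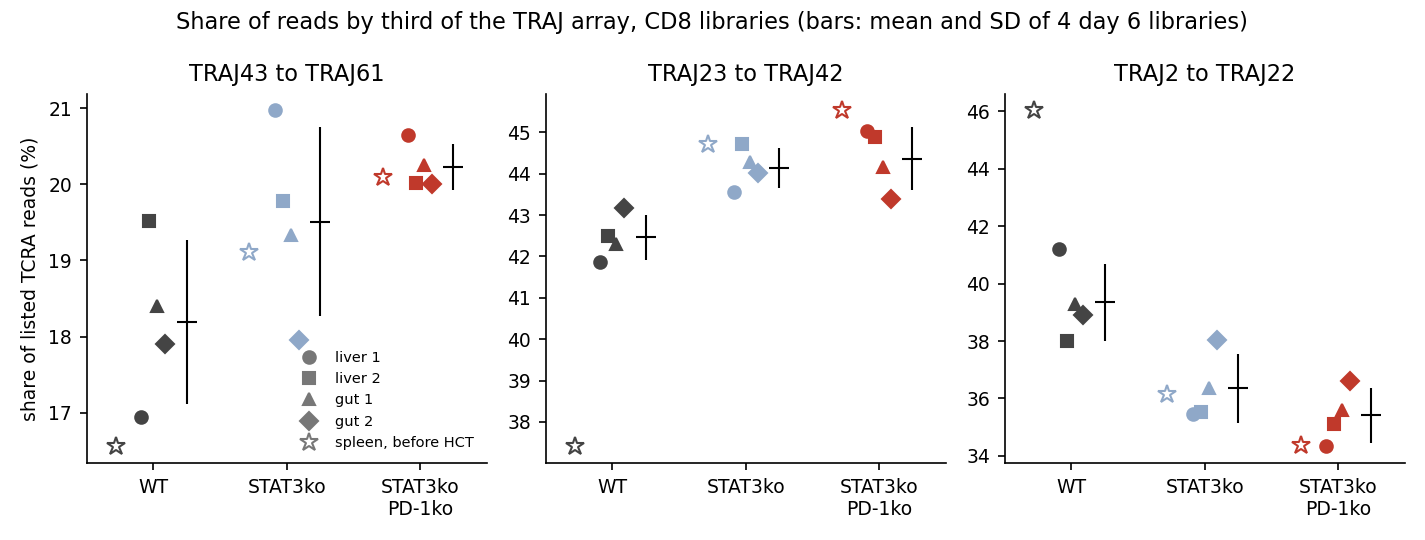
Share of listed TCRA reads (%, y axes do not start at 0) with TRAJ43 to TRAJ61, TRAJ23 to TRAJ42 and TRAJ2 to TRAJ22 in each CD8 library, by genotype. Symbols stand for liver 1, liver 2, gut 1, gut 2 and the spleen library before HCT, and bars for the mean and SD of the 4 day 6 libraries. For TRAJ2 to TRAJ22 all 4 STAT3koPD-1ko libraries (34.3% to 36.6%) lie below all 4 WT libraries (38.0% to 41.2%), and the spleen libraries lie at 34.4% and 46.0%.

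The difference in TRAJ2 to TRAJ22 was also present with frequencies left aside. With every clonotype counted once, whatever its frequency, TRAJ2 to TRAJ22 held 33.6% ± 0.83 of the clonotypes in STAT3koPD-1ko and 35.6% ± 0.490 in WT (SD, n = 4), lower in 4 of 4 pairs. TRAJ43 to TRAJ61 held 22.7% ± 1.00 and 21.2% ± 0.483, higher in 4 of 4 pairs. TRAJ23 to TRAJ42 held 43.7% ± 0.588 and 43.1% ± 0.279, a difference of 0.569 points in place of 1.90, and in liver 2 it was lower in STAT3koPD-1ko. For TRAJ2 to TRAJ22 the same direction stood in the spleen libraries labelled before HCT, 1 per genotype and hence with no replicate check. There TRAJ2 to TRAJ22 made up 34.4% in STAT3koPD-1ko and 46.0% in WT. STAT3ko libraries, in which PD-1 is intact, had 35.5%, 35.5%, 36.4% and 38.0% on day 6 and 36.2% in spleen. The day 6 values of STAT3ko lay between 35.5% and 38.0%, so the highest of them reached the lowest WT value, and STAT3ko was not tested against either group here. Differences between donor mice that have nothing to do with the deleted genes cannot be told apart from the genotype in this design.

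Segment by segment, the 41 TRAJ segments whose mean usage reached 0.5% were tested with limma on log2(percent + 0.1), in a fit with a term for each combination of tissue and number. None passed an adjusted p of 0.05 (0% of the 41 tested), and 7 had an unadjusted p below 0.05. Of the 14 segments tested in TRAJ2 to TRAJ22, 13 had a log2 change below 0, with a median of -0.12, whereas the median over all 41 was 0.01. Of the 12 tested in TRAJ43 to TRAJ61, 8 had a change above 0, with a median of 0.15. Of the 15 in TRAJ23 to TRAJ42, 12 were above 0, with a median of 0.09.

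Across the 41 segments, Spearman's rho between the TRAJ number and the log2 change was 0.639, a description over segments that share libraries. Within pairs it was 0.670 and 0.485 in liver 1 and 2 and 0.349 and 0.271 in gut 1 and 2, positive in each. In spleen it was 0.611. STAT3koPD-1ko was higher than every WT library for 2 segments (4.88% of the 41 tested), TRAJ49 and TRAJ56, and lower for 3 (7.32%), TRAJ9, TRAJ13 and TRAJ15.

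**Figure D2:**
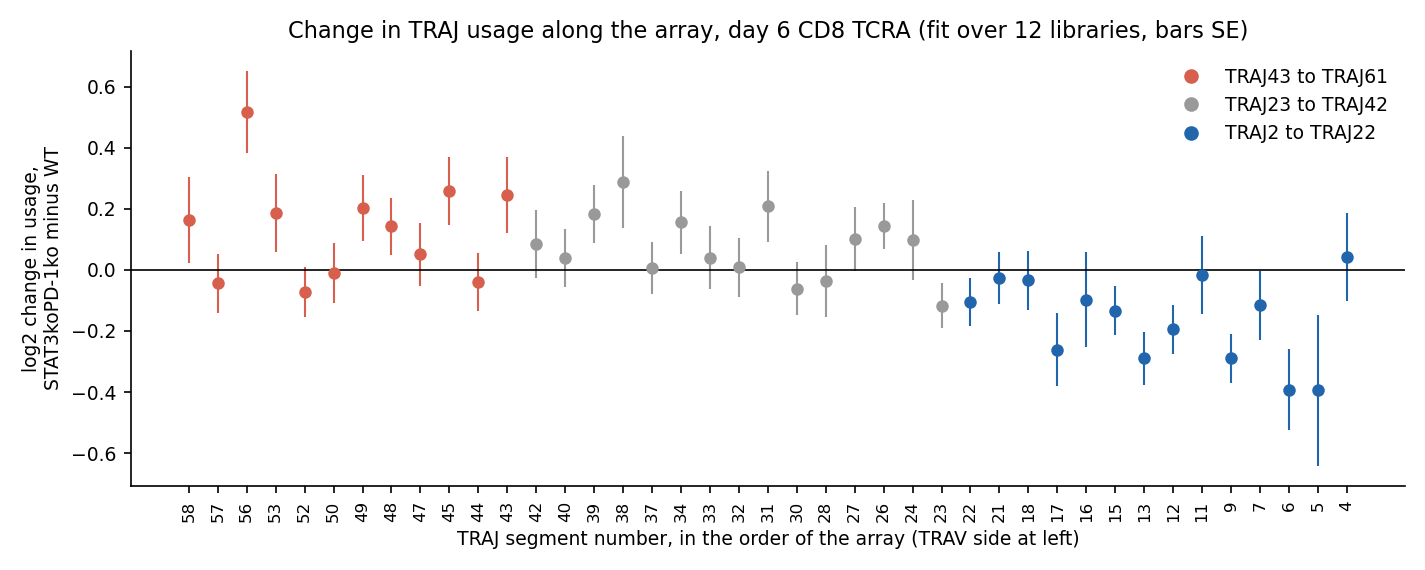
Log2 change in usage of each of the 41 tested TRAJ segments, STAT3koPD-1ko minus WT, on log2(percent + 0.1), in the order of the array with the TRAV side at left. Points are the fitted change over the 12 day 6 libraries and bars the SE, coloured by position in the array. Of the 14 segments of TRAJ2 to TRAJ22, 13 lie below 0, and of the 41 TRAJ56 has the highest change (0.52).

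The 5 TRAJ segments with the smallest p among those that differed one way in all 4 pairs are shown with their germline sequences, because they differ in position and in the residues they add to the CDR3. They were read from GENCODE vM21 on mm10, 5′ to 3′ on the plus strand, from the gene with the highest number to that with the lowest. Capitals mark the codons for F-G-X-G, the motif at whose phenylalanine the CDR3 ends, found as TTTGGNNNNGGN or TTCGGNNNNGGN on the coding strand (71.7% of the 60 TRAJ genes annotated there hold it).
TRAJ56: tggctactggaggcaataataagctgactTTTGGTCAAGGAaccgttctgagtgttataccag
TRAJ45: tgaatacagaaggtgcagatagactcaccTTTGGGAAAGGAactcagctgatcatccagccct
TRAJ17: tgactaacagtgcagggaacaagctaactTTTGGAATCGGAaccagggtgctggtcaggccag
TRAJ13: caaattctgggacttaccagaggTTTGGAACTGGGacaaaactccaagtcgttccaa
TRAJ9: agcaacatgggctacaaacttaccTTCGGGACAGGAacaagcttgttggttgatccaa

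TRAJ56 lies at chr14:54159263-54159325 and TRAJ9 at chr14:54209393-54209450, both annotated as J genes. TRAJ56 made up 1.67%, 1.68%, 1.53% and 1.52% of reads in STAT3koPD-1ko liver 1, liver 2, gut 1 and gut 2, against 0.807%, 1.38%, 1.22% and 1.01% in WT. No STAT3koPD-1ko library reached down to a WT library. The log2 change was 0.52 (SE 0.13, limma adjusted p = 0.0842). It was 0.34 without WT liver 1 (adjusted p = 0.218) and 0.22 with every clonotype counted once, where it passed (adjusted p = 0.0232). In spleen TRAJ56 was at 1.63% in STAT3koPD-1ko and 0.523% in WT.

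TRAJ9 made up 2.66%, 3.12%, 3.32% and 3.08% in STAT3koPD-1ko and 3.74%, 3.61%, 3.85% and 3.75% in WT, in the same order, again without overlap. Its log2 change was -0.29 (SE 0.08, limma adjusted p = 0.0842). TRAJ13, at chr14:54205741-54205797, was between 1.79% and 2.16% in STAT3koPD-1ko and between 2.18% and 2.90% in WT, with a log2 change of -0.29 (SE 0.09, adjusted p = 0.0898). With every clonotype counted once the log2 change was -0.05 for TRAJ13 (adjusted p = 0.423) and -0.16 for TRAJ9. TRAJ45 (0.26) and TRAJ17 (-0.26) overlapped between the groups and had adjusted p-values of 0.272 and 0.287. With every clonotype counted once, 6 of the 41 segments passed: TRAJ34, TRAJ45, TRAJ56 and TRAJ58 were higher and TRAJ7 and TRAJ9 lower in STAT3koPD-1ko.

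The most used TRAJ segments showed no difference that passed the test. TRAJ22 made up 8.66% ± 0.738 in STAT3koPD-1ko and 9.30% ± 0.444 in WT, TRAJ26 6.34% ± 0.534 and 5.72% ± 0.254, and TRAJ30 4.97% ± 0.247 and 5.20% ± 0.353 (SD, n = 4; limma adjusted p = 0.435, 0.287 and 0.743).

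In the TRBJ clusters the difference was smaller. The TRBJ2 cluster, which lies downstream of TRBJ1 and next to TRBD2, made up 71.9%, 71.5%, 69.2% and 69.4% of TCRB reads in STAT3koPD-1ko liver 1, liver 2, gut 1 and gut 2, and 69.5%, 68.0%, 67.8% and 69.0% in WT. STAT3koPD-1ko was higher in 4 of 4 pairs, but the groups overlapped. The means were 70.5% ± 1.37 and 68.6% ± 0.821 (SD, n = 4), with the smallest p the exact permutation tests allow, 0.125 within pairs and 0.0556 within tissue. With every clonotype counted once the shares were 67.6% ± 0.769 and 67.2% ± 0.656, and gut 2 turned the other way.

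Of the 12 TRBJ segments tested, 1 passed (8.33%), TRBJ1-5 at chr6:41535084-41535133, which was lower in STAT3koPD-1ko. Of the 6 TRBJ1 segments 5 had a change below 0, and of the 6 TRBJ2 segments 5 had one above 0. None of the 12 tested was higher (0%) or lower (0%) in all STAT3koPD-1ko than in all WT libraries.
TRBJ1-5: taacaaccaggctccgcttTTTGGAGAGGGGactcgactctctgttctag

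TRBJ1-5, printed on the plus strand of mm10 with the same motif in capitals, since it was the only TRBJ segment to pass, made up 1.41%, 1.36%, 1.47% and 0.924% in STAT3koPD-1ko and 1.92%, 1.54%, 1.64% and 1.21% in WT. Each STAT3koPD-1ko library was below its WT partner, but the groups overlapped. The log2 change was -0.27 (SE 0.07, limma adjusted p = 0.0368). The call was lost with its own spread (adjusted p = 0.170), without the block (0.502), with clonotypes in at least 3 libraries (0.281), with clonotypes counted once (log2 change -0.07, adjusted p = 0.349), without the gut 1 libraries (0.0575), and without any 1 of 6 of the 8 libraries (0.0559 to 0.198), all except WT liver 2 and STAT3koPD-1ko gut 1. The most used segments, TRBJ2-7, TRBJ2-1 and TRBJ1-1, had log2 changes of 0.02, 0.07 and -0.10 with limma adjusted p of 0.770, 0.435 and 0.392.

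Among V segments of the beta chain, TRBV2, the segment of the V beta 4 chain, was used more by STAT3koPD-1ko cells. TRBV2 lies at chr6:41047340-41047995 near the upstream end of the locus. It made up 0.905% and 0.824% of reads in STAT3koPD-1ko liver and 0.686% and 0.733% in gut, against 0.659% and 0.537% in WT liver and 0.557% and 0.376% in WT gut. All STAT3koPD-1ko libraries lay above all WT libraries. The means were 0.787% ± 0.0972 and 0.532% ± 0.117 (SD, n = 4), and the log2 change was 0.50 (SE 0.11, limma adjusted p = 0.0001497). It was the only call among the 18 TRBV segments tested (5.56%), and the only one of the 18 whose STAT3koPD-1ko libraries were all above WT (5.56%).

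limma used 1 common spread for all 18 TRBV segments here, and with the spread of TRBV2 alone the adjusted p was 0.0854. The call was also lost without WT gut 2 (adjusted p = 0.0738), with each clonotype counted once (log2 change 0.13, adjusted p = 0.208), with clonotypes in at least 3 libraries (0.176) and with all segments tested (0.0637), and it stood without the gut 1 libraries (adjusted p = 0.0119) and without the block (0.0351).

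**Figure D3:**
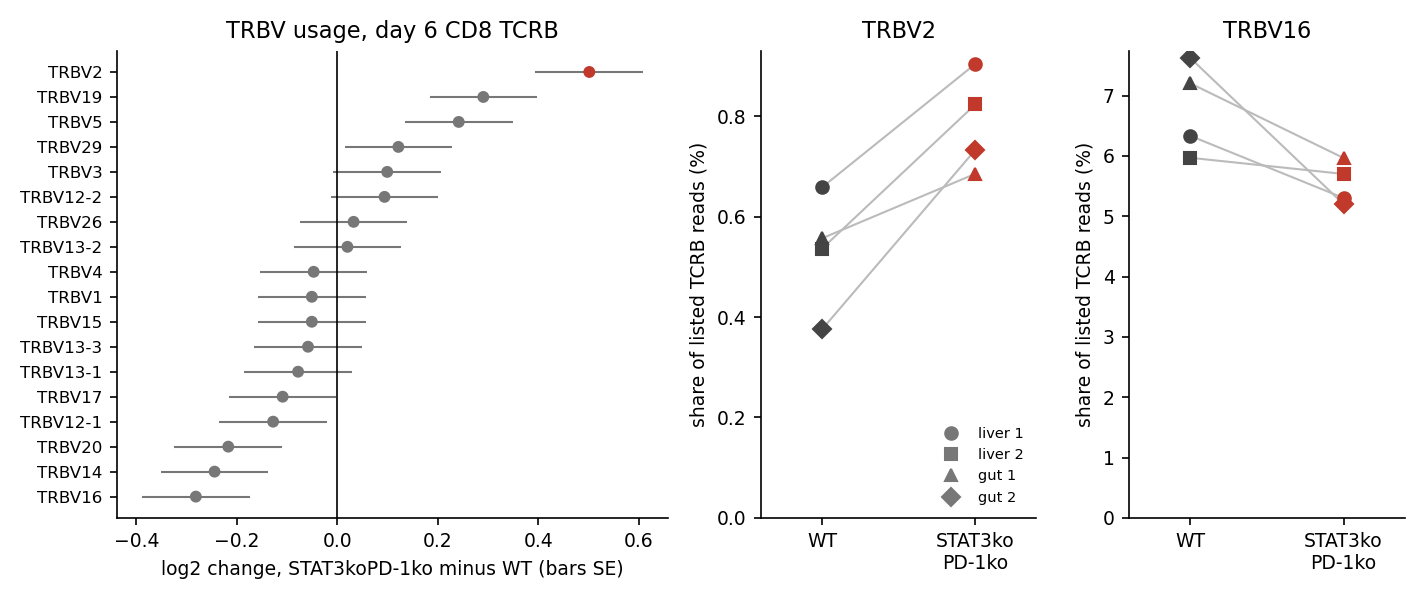
Left, log2 change in usage of the 18 tested TRBV segments, STAT3koPD-1ko minus WT, on log2(percent + 0.1), with bars for the SE and the segment that passed the test in red. Middle and right, share of listed TCRB reads (%) with TRBV2 and TRBV16 in each day 6 library, with lines joining libraries of the same tissue and number. TRBV2 is higher in 4 of 4 pairs (0.787% against 0.532% on average) and TRBV16 lower in 4 of 4.

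A further 4 TRBV segments differed one way in all 4 pairs without passing. TRBV16 (V beta 11) was at 5.30%, 5.70%, 5.96% and 5.20% in STAT3koPD-1ko and at 6.33%, 5.97%, 7.20% and 7.62% in WT. Of the 18 tested it was the only one with all STAT3koPD-1ko libraries below WT (5.56%), though by a margin of under 0.01 points. Its log2 change was -0.28 (limma adjusted p = 0.0592). TRBV19 (0.29), TRBV14 (-0.24) and TRBV20 (-0.22) had adjusted p-values of 0.0592, 0.0939 and 0.136. Some of these calls turned on 1 library or 1 setting. TRBV19 and TRBV14 passed without STAT3koPD-1ko gut 2 (limma adjusted p = 0.00359 for each), TRBV19 also without WT liver 1 (0.0306) and with CDR3 from C to F, W or L alone (0.0433), TRBV16 without STAT3koPD-1ko liver 2 (0.0492), and TRBV14 and TRBV16 without division by the listed share (0.0406 and 0.0234). TRBV20 passed under no alternative run, but its log2 change was -0.39 with clonotypes in at least 3 libraries. Without STAT3koPD-1ko gut 2 the log2 change of TRBV16 was -0.16. With each clonotype counted once the log2 changes were 0.06 for TRBV19, -0.03 for TRBV14, -0.02 for TRBV20 and -0.07 for TRBV16, none of which passed. The most used segments were TRBV29, at 20.9% ± 1.81 in STAT3koPD-1ko and 19.2% ± 0.579 in WT, and TRBV13-1, at 11.8% ± 0.697 and 12.6% ± 1.73 (SD, n = 4), followed by TRBV14, at means of 8.30% and 9.78%.

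BALB/c mice carry endogenous retroviral superantigens that bind some V beta chains and are presented by I-E, a class II molecule that C57BL/6 mice do not express. Of the 5 segments listed for them, TRBV26 (V beta 3), TRBV12-1 and TRBV12-2 (V beta 5), TRBV16 (V beta 11) and TRBV15 (V beta 12), none passed, and the median log2 change was -0.05, the same as over all 18 (-0.05). With clonotypes counted once TRBV12-1 was the only TRBV segment to pass, lower in STAT3koPD-1ko, and TRBV16 passed without STAT3koPD-1ko liver 2 (adjusted p = 0.0492) and without division by the listed share (0.0234). Together they made up 22.5% ± 2.99 of reads in STAT3koPD-1ko and 23.7% ± 1.67 in WT (SD, n = 4; exact permutation p = 0.5 within pairs). TRBV26 differed between tissues: STAT3koPD-1ko libraries were at 0.838% and 0.845% in liver, below 1.09% and 1.04% in WT, but at 2.01% and 1.48% in gut, above 1.58% and 1.08%. The genotype difference was 0.68 higher on the log2 scale in gut than in liver (limma interaction, adjusted p = 0.0252).

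Among TRAV segments, 1 of 41 passed (2.44%), TRAV13N-1 at chr14:53162399-53162910. It was at 0.701%, 0.616%, 0.786% and 0.632% in STAT3koPD-1ko liver 1, liver 2, gut 1 and gut 2 and at 0.372%, 0.562%, 0.552% and 0.396% in WT, without overlap. The log2 change was 0.47 (SE 0.11, limma adjusted p = 0.0420). TRAV13N-1 is a near-identical copy of other TRAV13 segments, and reads could have been split between them. The call was lost with its own spread (adjusted p = 0.294), without the block (0.358), with clonotypes in at least 3 libraries (0.233), with all segments tested (0.340), without division by the listed share (0.0758), without the gut 1 libraries (0.169), when TRAV segments were summed to families, and without any 1 of 6 libraries (0.0788 to 0.246), all except both liver 2 libraries. With each clonotype counted once its log2 change was 0.01.

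TRAV17 and TRAV19 belong to the TRAV genes nearest to the TRAJ array, which the first joints of a locus tend to use. TRAV17 was at 0.505%, 0.630%, 0.535% and 0.513% in STAT3koPD-1ko and at 0.388%, 0.405%, 0.489% and 0.282% in WT. Of the 41 TRAV segments tested, only TRAV17 and TRAV13N-1 had all STAT3koPD-1ko libraries above WT (4.88%). None of the 41 had all of them below (0%). The log2 changes of TRAV17 and TRAV19 were 0.41 and 0.27, each with a limma adjusted p of 0.324. With clonotypes counted once both passed, at 0.18 and 0.15 (adjusted p = 0.0486 each). Over all alternative runs the lowest limma adjusted p of TRAV17 was 0.0138.

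Summed over TRAV17, TRAV18, TRAV19, TRAV20, TRAV21/DV12 and TRAV23, a list chosen after their values were seen, the J-proximal share was 1.73%, 2.08%, 2.08% and 2.05% in STAT3koPD-1ko and 1.497%, 1.81%, 1.93% and 1.32% in WT, higher in 4 of 4 pairs. In spleen it was 1.68% in STAT3koPD-1ko and 2.01% in WT, the other way round. TRAV12-2 (0.26) and TRAV14-1 (0.20) also differed one way in all pairs, with limma adjusted p of 0.352 and 0.413. The most used segment, TRAV16N, held 25.6% ± 3.02 of reads in STAT3koPD-1ko and 25.9% ± 1.13 in WT (SD, n = 4). It was higher in STAT3koPD-1ko in both liver pairs (means of 28.0% and 26.8%) and lower in both gut pairs (23.1% and 25.0%), but the difference between tissues did not pass (limma interaction, adjusted p = 0.971). It was followed by TRAV12N-3 (7.56% and 7.81%) and TRAV7-5 (4.81% and 4.77%).

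Clonality was lower in STAT3koPD-1ko than in WT in both liver pairs of either chain, whereas in gut it was higher in both TCRA pairs and in 1 of the 2 TCRB pairs. The clonality index, 1 minus the Shannon entropy over its maximum for the number of listed clonotypes, is 0 when all clonotypes are equally frequent. In TCRB it was 0.0811 and 0.0836 in STAT3koPD-1ko liver, below 0.111 and 0.0986 in WT liver. In gut it was 0.0837 and 0.108, against 0.0858 and 0.0840 in WT. In TCRA it was 0.0904 and 0.0931 in STAT3koPD-1ko liver, below 0.120 and 0.106 in WT, but 0.110 and 0.114 in gut, above 0.0972 and 0.0957 in WT.

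Over both tissues the index was 0.0891 ± 0.0126 in STAT3koPD-1ko and 0.0949 ± 0.0126 in WT for TCRB (SD, n = 4; exact permutation p = 0.625 within pairs), and 0.102 ± 0.0118 and 0.105 ± 0.0111 for TCRA (exact permutation p = 0.875). The 100 most frequent TCRB clonotypes held 7.96% and 7.86% of listed reads in STAT3koPD-1ko liver and 14.7% and 11.2% in WT liver. In gut they held 12.6% and 20.5%, against 9.48% and 11.3% in WT. By this measure STAT3koPD-1ko was lower in both liver pairs and higher in both gut pairs, in TCRA as in TCRB.

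The direction of the difference in the number of listed clonotypes above a threshold depended on the threshold. In liver, 12 and 9 listed TCRB clonotypes were above 0.1% of all reads in STAT3koPD-1ko, against 82 and 39 in WT. In gut there were 29 and 36, against 17 and 5 in WT. In the spleen libraries 64 were above 0.1% in STAT3koPD-1ko and 187 in WT. Above 0.01% of all reads the order was the reverse in all 4 pairs. There were 2595 and 2400 listed TCRB clonotypes in STAT3koPD-1ko liver against 2189 and 2193 in WT. In gut there were 1149 and 1159 against 1905 and 1366. TCRA counts had the same directions at both thresholds. In gut 1 the listed share was 12.3 points lower in STAT3koPD-1ko than in WT, and its part in the gut result was not tested. In gut 2 listed clonotypes made up only 53.2% of TCRB reads in both genotypes. Clonotypes held by a single joined library are not listed and are missing from all these counts. How many of them were above a threshold is unknown. Both chains come from the same sorted samples and are no independent evidence.

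**Figure D4:**
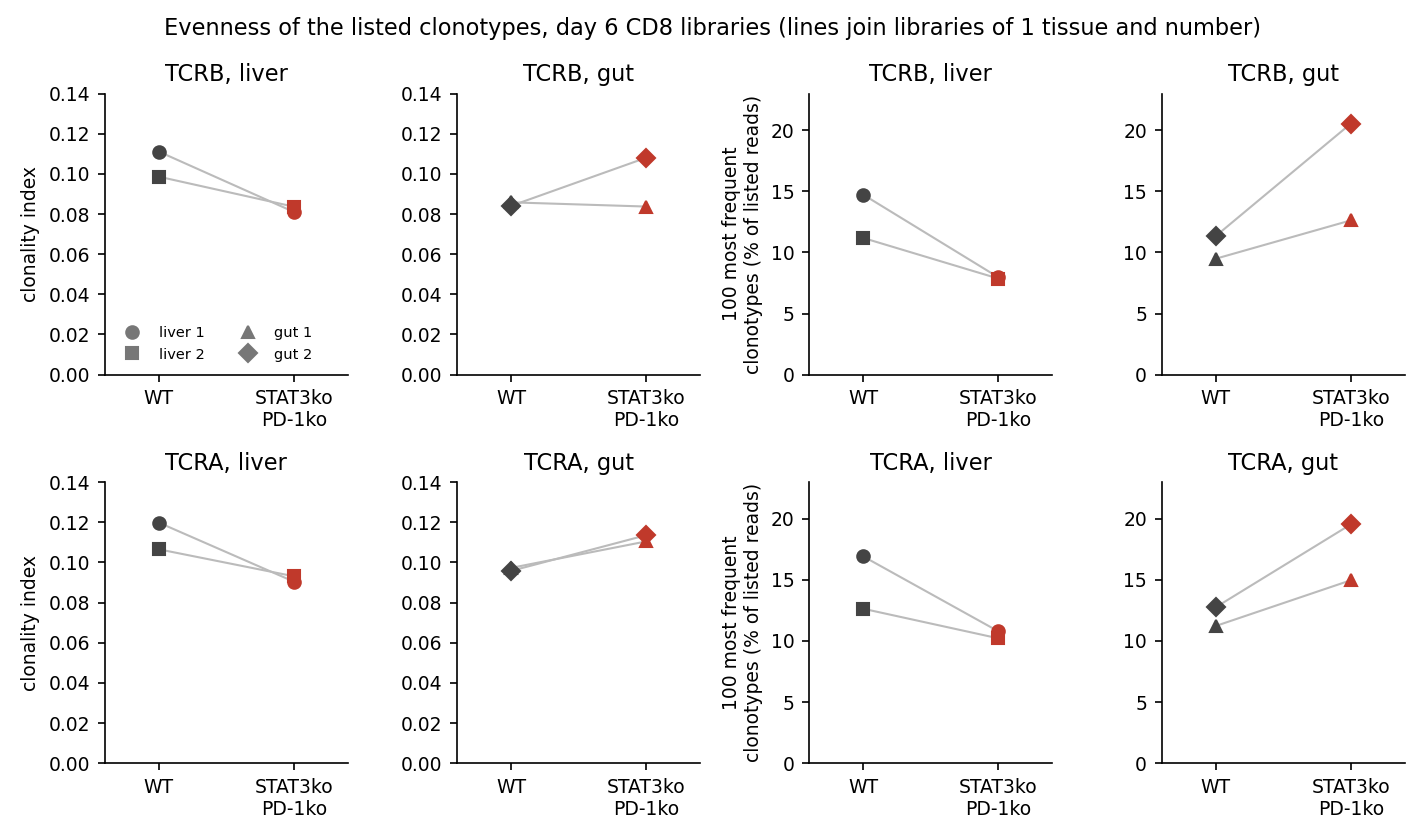
Clonality index (left) and share of listed reads held by the 100 most frequent clonotypes (%, right) in each day 6 CD8 library, TCRB above and TCRA below, by tissue, with lines joining libraries of the same number. In liver STAT3koPD-1ko is lower than WT in both pairs, chains and measures (TCRB index 0.111 and 0.0986 to 0.0811 and 0.0836). In gut the shares are higher in both pairs, and the TCRB index of gut 1 is nearly level (0.0858 and 0.0837).

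Liver and gut of the same genotype and number overlapped by 23.5% and 10.6% in STAT3koPD-1ko TCRB and by 37.2% and 10.8% in WT. In TCRA the values were 34.9% and 24.0%, and 45.4% and 26.9%. With 2 pairs per genotype, no test was made.

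With listed clonotypes weighted by their reads and no further cut on how many libraries held them, no difference in CDR3 length passed a test. Only CDR3 that ran from C to F, W or L were measured, 98.2% ± 0.712 of TCRB reads in STAT3koPD-1ko and 98.3% ± 0.279 in WT. The mean TCRB length was 13.4 residues in both (SD 0.114 and 0.145, n = 4; exact permutation p = 1.00 within pairs). The mean TCRA length was 13.6 ± 0.0628 in STAT3koPD-1ko and 13.7 ± 0.0776 in WT, shorter by 0.0445 residues on average and in 4 of 4 pairs (exact permutation p = 0.125 within pairs, the smallest possible, and 0.222 within tissue). Of the 8 lengths tested, 0 passed in TCRB (0%) and 0 in TCRA (0%), and in both chains 0 had an unadjusted limma p below 0.05.

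In TCRA the lengths with the smallest p were 15 residues (17.2% ± 1.12 and 17.8% ± 1.16 of reads), 12 (14.9% ± 1.16 and 14.1% ± 1.04) and 11 (5.28% ± 0.269 and 4.80% ± 0.532), each with a limma adjusted p of 0.353. In TCRB they were 17, 13 and 16 residues, each with an adjusted p of 0.918. TCRA CDR3 of 11 residues passed with each clonotype counted once (limma adjusted p = 0.0209), and TCRB CDR3 of 16 residues passed with clonotypes in at least 3 libraries (0.0371). The commonest length was 14 residues, at 30.4% ± 1.49 and 30.3% ± 0.392 of TCRB reads.

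**Figure D5:**
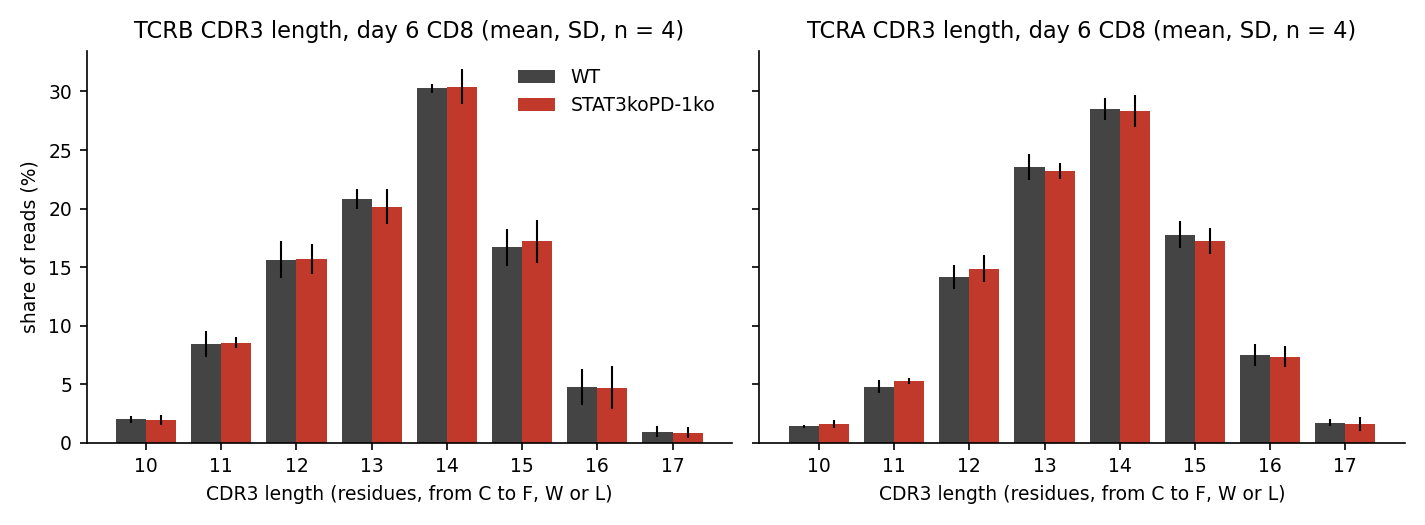
Share of reads (%) by CDR3 length in TCRB (left) and TCRA (right), mean and SD of the 4 STAT3koPD-1ko and 4 WT day 6 CD8 libraries. Both genotypes peak at 14 residues (30.4% and 30.3% in TCRB, 28.3% and 28.5% in TCRA).

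Among residues at the centre of the CDR3, with 4 left out at each end, none of 20 passed in TCRB (0%, with 0 at an unadjusted p below 0.05) or TCRA (0%, with 4). Of the 20 TCRA residues, 1 had all STAT3koPD-1ko libraries below WT, methionine, and 1 had all of them above, asparagine. For asparagine STAT3koPD-1ko liver 2 and WT gut 2 both rounded to 17.02%. Methionine made up 1.24%, 1.35%, 1.39% and 1.41% of central residues in STAT3koPD-1ko and 1.53%, 1.56%, 1.55% and 1.51% in WT (log2 change -0.18, limma adjusted p = 0.0707). It passed without the block (adjusted p = 0.0408), with only the 8 libraries of both genotypes (0.0410), without WT gut 2 (0.0149), with clonotypes in at least 3 libraries (0.0296) and with each clonotype counted once (log2 change -0.07, adjusted p = 0.00387). It did not pass with its own spread (0.152), without the gut 1 libraries (0.308) or without any 1 of the other 7 libraries (0.0867 to 0.2998). TRAJ9, whose sequence above holds the codon atg, supplied 36.9% ± 2.97 of central methionine in STAT3koPD-1ko and 38.5% ± 1.58 in WT. Outside TRAJ9 clonotypes methionine was still lower in 4 of 4 pairs, at 0.870% ± 0.0150 and 0.976% ± 0.0330.

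Asparagine made up 17.2% ± 0.304 of central TCRA residues in STAT3koPD-1ko and 16.5% ± 0.527 in WT, higher in 4 of 4 pairs (log2 change 0.06, limma adjusted p = 0.171), and lysine 0.126% ± 0.0295 and 0.152% ± 0.0329 (adjusted p = 0.171). Lysine passed with only the 8 libraries of both genotypes (adjusted p = 0.0410) and with clonotypes in at least 3 libraries (0.00334). Without the clonotypes of TRAJ56, which encodes consecutive asparagines, asparagine was higher in 3 of 4 pairs, at 16.99% ± 0.316 and 16.33% ± 0.510. In TCRB, methionine, tryptophan and proline had the smallest p, each with an adjusted p of 0.602. Central net charge, which counts lysine and arginine as positive and aspartate and glutamate as negative, was -0.342 ± 0.0222 and -0.340 ± 0.0196 in TCRB, and -0.380 ± 0.0146 and -0.372 ± 0.0145 in TCRA (exact permutation p = 1.00 and 0.625 within pairs).

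Clonotypes were called recurrent when 10 or more of the 12 day 6 libraries of a table held them. None of 1131 passed in TCRB (0%, with 112 at an unadjusted limma p below 0.05) and none of 2647 in TCRA (0%, with 244). The log2 change was above 0 for 576 and below 0 for 555 in TCRB, and for 1310 and 1337 in TCRA. All STAT3koPD-1ko libraries were above all WT libraries for 30 of the 1131 and 85 of the 2647. They were all below for 40 and 62. The clonotypes with the smallest p, among those with at most 14 residues that differed one way in all pairs, are shown with the representative CDR3 that the authors' table gives, from the codon of C to that of F. Capitals mark bases between the V and the J segment, and sequences without capitals need no such base.
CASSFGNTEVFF: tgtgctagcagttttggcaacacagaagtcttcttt
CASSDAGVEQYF: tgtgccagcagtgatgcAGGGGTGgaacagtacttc
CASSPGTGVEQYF: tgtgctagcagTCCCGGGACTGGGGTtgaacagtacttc
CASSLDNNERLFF: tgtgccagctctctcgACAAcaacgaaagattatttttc
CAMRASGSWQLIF: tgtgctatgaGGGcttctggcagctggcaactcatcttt
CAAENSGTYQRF: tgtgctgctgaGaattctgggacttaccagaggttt
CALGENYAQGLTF: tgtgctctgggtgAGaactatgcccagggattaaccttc
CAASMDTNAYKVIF: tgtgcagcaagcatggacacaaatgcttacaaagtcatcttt

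The first 4 are TCRB clonotypes and the last 4 TCRA clonotypes. At most 4 bases lay between V and J in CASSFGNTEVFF, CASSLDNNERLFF and all 4 TCRA clonotypes, and 15 in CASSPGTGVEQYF. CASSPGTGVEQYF (TRBV29 and TRBJ2-7) was at 0.00423%, 0.00946%, 0.0199% and 0.000640% of all reads in STAT3koPD-1ko liver 1, liver 2, gut 1 and gut 2, and at 0.0834%, 0.0529%, 0.0846% and 0.0416% in WT. Its groups did not overlap, which held in this direction for 40 of the 1131 recurrent TCRB clonotypes. Its log2 change on log2(percent + 0.001) was -3.28 (SE 0.83, limma adjusted p = 0.214). In spleen it was at 0.00497% in STAT3koPD-1ko and 0.0547% in WT.

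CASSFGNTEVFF (TRBV29 and TRBJ1-1) was listed at 0 in STAT3koPD-1ko liver 1 and at 0.000676%, 0.00139% and 0.00160% in the other STAT3koPD-1ko libraries, against 0.00565% to 0.135% in WT. In spleen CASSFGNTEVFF was listed at 0 in STAT3koPD-1ko and at only 0.000382% in WT, and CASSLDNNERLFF was listed at 0 in both. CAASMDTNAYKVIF (TRAV7D-2 and TRAJ30) was the only one of the 8 that was higher in STAT3koPD-1ko, at 0.0152%, 0.00993%, 0.00687% and 0.0215%, and in WT it was at 0.00134%, 0 in liver 2 and gut 1, and 0.000665%. In spleen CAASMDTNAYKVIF was at 0.117% in STAT3koPD-1ko and listed at 0 in WT. The adjusted p was 0.214 for each of the 4 TCRB and 0.191 for each of the 4 TCRA clonotypes.

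In TCRB most libraries were led by different clonotypes. Among CDR3 from C to F, W or L, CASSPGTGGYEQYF led both STAT3koPD-1ko liver libraries in TCRB, at 0.152% and 0.199% of all reads, and was found in all 12 day 6 libraries. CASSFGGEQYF led WT liver 1 (0.383%), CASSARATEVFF WT liver 2 (0.311%), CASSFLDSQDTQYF WT gut 1 (0.612%) and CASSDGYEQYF WT gut 2 (0.188%). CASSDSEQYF led STAT3koPD-1ko gut 1 (0.446%), and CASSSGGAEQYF led STAT3koPD-1ko gut 2 (0.467%) and was listed in only 3 of the 12 day 6 libraries. Listed clonotypes made up 81.5% and 53.2% of the reads of these gut libraries, and of listed reads alone the most frequent clonotypes held 0.547% and 0.878%. In WT gut 2 they also made up 53.2%, and clonotypes that are not listed could not be ranked. YAEQFF, which does not start with C, was more frequent than the named leader in WT gut 2 (0.323%). The same held in STAT3koPD-1ko liver 1 (0.244%) and liver 2 (0.270%). In TCRA all 8 libraries were led by a TRAV16N clonotype, and the same clonotype, with TRAJ22, led 3 of them across both genotypes. It made up 0.275% and 0.268% of all reads in STAT3koPD-1ko liver 1 and 2 and 0.666% in WT liver 2.

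TCRA of other T cells was rare in both genotypes. The pair of TRAV11 with TRAJ18, which marks invariant NKT cells, made up 0.00228%, 0.0666%, 0.0200% and 0.00168% in STAT3koPD-1ko and 0.109%, 0.0217%, 0.131% and 0.0488% in WT, lower in 3 of 4 pairs (exact permutation p = 0.25 within pairs). TRAV1 with TRAJ33, which marks MAIT cells, made up 0.0344% ± 0.0176 and 0.0218% ± 0.0104 (SD, n = 4).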

How the data were processed

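The authors amplified TCR transcripts of sorted CD8 T cells with the SMARTer mouse TCR a/b kit, sequenced paired reads on a MiSeq, called clonotypes with MiXCR at default settings and joined the libraries of each chain with VDJtools. The deposited values are fractions of the reads of a library, formed before the join. The deposited number of libraries per clonotype, from 2 to 18, showed which clonotypes were kept. The join was on the CDR3 amino acid sequence alone, since 0 CDR3 stood on more than 1 row. Depth and molecular identifiers are not given in the sources used here, and a fraction of reads is not one of cells. PCR and transcripts per cell can move it.

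Listed fractions were divided by their sum and summed by segment, length or residue. limma 3.58.1 in R 4.3.3 was run on log2(percent + 0.1), or on log2(percent + 0.001) for clonotypes, over the 12 day 6 libraries of a table with genotype and the 4 combinations of tissue and number as terms. Features needed a mean of 0.5%, clonotypes at least 10 libraries. p-values were adjusted by Benjamini-Hochberg within a table and kind of feature. Fold changes on this scale understate those of rare features. Single values were tested with exact two-sided permutation tests, over the 16 arrangements within pairs (smallest p 0.125) and the 36 within tissue (smallest p 0.0556), without adjustment over the values tested. The code was tested on simulated data. All 190 V and J segment names were found in GENCODE vM21 (mm10, the build named in the submitters' processing notes), which gave coordinates and J sequences.

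Named were segments past an adjusted p of 0.05, the 5 V and 5 J segments of each chain with the smallest p among those that differed one way in all pairs, the 3 most used, the fixed lists, the 3 lengths and residues with the smallest p, and 4 recurrent clonotypes of at most 14 residues chosen likewise. Members and lists were chosen with earlier results of these data known. CD4 tables and the authors' other join columns were not used. The study names batches without tying them to replicate numbers.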

Additional observations from a re-analysis of the deposited data

Results flagged for a closer look

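Of 152 groups of 4 libraries examined, 16 had a library far from the other 3 by Dixon's test at the 95% level, where chance flags about 1 in 20. Of the 16, 12 were gut 2 libraries. STAT3koPD-1ko gut 2 stood apart with the highest TCRB clonality (0.108), the shortest mean TCRB CDR3 (13.3 residues), the lowest central lysine in TCRA (0.0821%), the lowest TRBV20 (0.240%) and the highest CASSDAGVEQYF (0.00224%). WT gut 2 stood apart with the lowest TRAJ17 (1.87%), the highest share of TCRA CDR3 of 12 residues (15.7%), the lowest share of TCRB CDR3 of 16 residues (2.47%), the lowest central methionine in TCRB (0.0961%), the lowest listed share in both chains (53.2% in TCRB, 79.5% in TCRA) and the highest share of TCRA CDR3 from C to F, W or L (99.98%). Some of these values were shared by gut 2 of WT, STAT3ko and STAT3koPD-1ko. TCRB CDR3 of 16 residues made up 2.47%, 3.07% and 2.03% there. The mean TCRB length was 13.2, 13.4 and 13.3 residues, and the TCRB listed share 53.2%, 58.0% and 53.2%. Central methionine in TCRB was not low in STAT3koPD-1ko gut 2 (0.239%). STAT3koPD-1ko liver 1 had the lowest J-proximal TRAV share (1.73%). WT liver 1 had the highest central tryptophan in TCRB (2.39%), and WT gut 1 the highest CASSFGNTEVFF (0.135%) and TRBV26 (1.58%).

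For segments, lengths, residues and recurrent clonotypes the difference between tissues was tested, and TRBV26 alone passed. TRBV26 was lower in STAT3koPD-1ko in liver and higher in gut, and the differences were 0.68 apart on the log2 scale (limma interaction, adjusted p = 0.0252). TRAV16N, TRAV7-5, TRBV12-2 and TCRB CDR3 of 16 residues also went one way in both liver pairs and the other way in both gut pairs, but the difference between tissues did not pass for them (limma interaction, adjusted p = 0.971, 0.971, 0.594 and 0.445). Of 43 single values computed over both chains, 18 had genotype differences that likewise went opposite ways in both liver and both gut pairs, and the difference between tissues was not tested for them. Of the 18, 9 are not given here, namely the SD of TCRA length and further summaries of how reads were spread over clonotypes, the same reads as in the values that follow. For the other 9 the gut minus the liver difference is given. It was 0.0369 for the TCRA clonality index. For the share of the 100 most frequent clonotypes it was 11.2 points in TCRB and 9.54 in TCRA. For the number of listed clonotypes above 0.1% it was 71.5 in TCRB and 72.5 in TCRA. For the number above 0.01% it was -788 in TCRB and -679 in TCRA. For TCRB it was 0.0598 for central net charge and -0.75 points for the share of CDR3 from C to F, W or L.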

How the results depend on the processing

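The counts of features past an adjusted p of 0.05 depended on the processing. Of the reported TRAV count of 1, 0 remained without the replicate block, without the gut 1 libraries, with clonotypes in at least 3 libraries, with all segments tested, without division by the listed share, with TRAV families and with each feature's own spread. The TRAV count was 2 with only the 8 libraries of both genotypes (block kept), 3 with clonotypes counted once and 0 to 1 when a single library was left out. Of the reported TRBJ count of 1, 0 remained without the block, without gut 1, with clonotypes counted once, with clonotypes in at least 3 libraries and with each segment's own spread, and 0 to 1 when a library was left out. The reported TRBV count of 1 became 0 with clonotypes in at least 3 libraries, with all segments tested and with each segment's own spread, 3 without division by the listed share and 2 with CDR3 from C to F, W or L. It was 0 without WT gut 2 and 4 without STAT3koPD-1ko gut 2, the range over libraries left out. The TRAJ count of 0 became 6 with clonotypes counted once, and was 0 to 1 when a library was left out (1 without STAT3koPD-1ko gut 2).

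The TCRA residue count of 0 became 1 without the block, 2 with the 8 libraries, 5 with clonotypes counted once, 3 with clonotypes in at least 3 libraries, and 0 to 2 when a library was left out (2 without WT gut 2). The CDR3 length counts of 0 became 1 in TCRA with clonotypes counted once and 1 in TCRB with clonotypes in at least 3 libraries, and the TCRA recurrent clonotype count became 1 when 8 libraries sufficed. The causes of these changes were not tested.

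The mean clonality difference changed sign with the share of the 100 most frequent clonotypes (0.566 points in TCRB, 0.496 in TCRA) and, in TCRA, with the inverse Simpson index on a log2 scale with its sign turned (0.0217). With a library and its pair left out it ranged from -0.0157 to 0.0023 in TCRB and from -0.00985 to 0.00586 in TCRA. Mean TCRB length ranged from -0.0154 to 0.0132 residues (0.0132 without gut 1), and central net charge from -0.0161 to 0.00872 in TCRB (0.00452 with clonotypes in at least 3 libraries) and from -0.0137 to 0.000671 in TCRA. The overlap difference ranged from -20.1 to 6.25 points in TCRB and from -15.9 to 2.58 in TCRA. The TRAJ2 to TRAJ22, TRAJ43 to TRAJ61 and TRBJ2 shares kept their direction without any 1 pair, at -4.48 to -2.96, 1.48 to 2.55 and 1.42 to 2.48 points. The log2 change of TRBJ2-4 turned to -0.0223 with clonotypes counted once, that of central TCRB methionine to -0.0694 with clonotypes in at least 3 libraries, and that of TCRB CDR3 of 16 residues ranged from -0.105 to 0.0351 with a library left out, above 0 without STAT3koPD-1ko gut 2.

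Equal replicate numbers were not shown to pair the samples in liver. In gut the TCRB listed share went with the number in all 3 genotypes, at 53.2% to 58.0% in gut 2 and 81.5% to 93.8% in gut 1. The cause was not tested. The correlation between STAT3koPD-1ko and WT of the difference between numbers 1 and 2 was 0.0632 in liver and 0.63 in gut for TRBV, 0.361 and 0.805 for TRBJ, 0.133 and 0.293 for TRAV, and -0.187 and 0.191 for TRAJ. Unknown depth leaves no limit for a clonotype listed at 0.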
